A study of Mus musculus with 6 samples.

Results

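Lysosomal hydrolases and the membrane proteins that bound them form the set described here. Its 46 genes were chosen by name, as 11 proteases, 18 enzymes that take apart glycans, 8 enzymes and activators that act on sphingolipids and other lipids, and 9 proteins of the lysosomal membrane. They were chosen with earlier results of these data known, so their counts are not those of a list blind to the data. A gene was read where the array annotation gave a probe set that symbol alone, and where a gene had several, the brightest on average was taken. This found 44 of the 46 genes, among 22180 genes on the array. The only probe set naming Glb1, the lysosomal beta-galactosidase gene, also named a neighbouring gene and was not used, and Tmem55b was absent under that symbol.

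Primary fibroblasts were grown from the lungs of adult mice of mixed strain that carry a CreERT2 transgene and the R26RSmoM2 allele and passaged at most 3 times. CreERT2 is a Cre recombinase that needs a tamoxifen-type ligand, and once active it switches on SmoM2, a constitutively active form of the hedgehog transducer Smoothened. Wells received vehicle (n = 3) or 1 µg/ml 4-hydroxytamoxifen (4OHT, n = 3), and RNA was taken after 48 h, giving 6 arrays. All 6 carry both alleles, so the drug, any recombinase activity and any SmoM2 switched on go together and cannot be told apart. Every array has the same number in its genotype label, and the labels name no second animal or culture. A p-value here speaks only of how far wells differ, and that variation may be technical.

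The lysosome is an acidic compartment in which hydrolases break down proteins, glycans and lipids delivered by endocytosis and autophagy. Most hydrolases reach it through mannose 6-phosphate receptors, while heavily glycosylated membrane proteins line its inner face and transporters return the products to the cytosol. Many of these genes share a promoter element called CLEAR, with TCACGTG at its core, which is bound by the transcription factors TFEB, TFE3 and MITF.

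Of the 44 lysosomal genes measured, 20 were higher, 2 were lower and 22 did not pass at an adjusted p under 0.05 (limma, Benjamini-Hochberg over all genes). In comparison, 5.38% of all genes tested were higher and 6.62% were lower. The rises ran from 1.13-fold to 1.57-fold, and 3 of them reached 1.5-fold. The median log2 fold change, 4OHT minus vehicle, was 0.17 over the 44 genes and -0.01 over all genes. All 44 lay above the median level of the array, where 8.97% of genes were higher and 10.9% lower. In 28 genes all 3 wells with 4OHT lay above all 3 vehicle wells, in 5 they lay below and in 11 the groups overlapped, while of all genes 15% lay above and 17.8% below, 32.7% together. Leaving out vehicle wells 1, 2 and 3 in turn gave 11, 10 and 13 genes higher, and leaving out 4OHT wells 1, 2 and 3 gave 10, 10 and 15. Over all genes the number higher then lay between 486 and 986, against 1193 with all arrays.

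**Figure D1:**
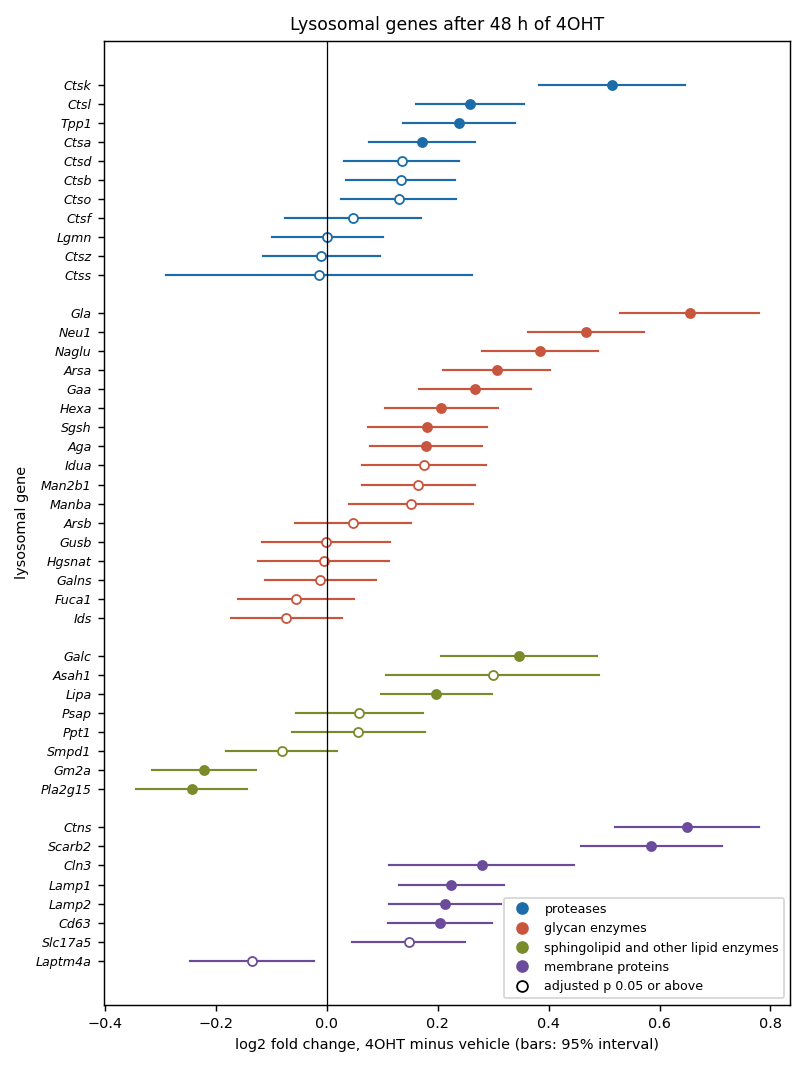
Log2 fold change (4OHT minus vehicle, horizontal axis) of each of the 44 measured lysosomal genes, grouped by role, with 95% intervals from limma; filled points have an adjusted p under 0.05. 20 filled points lie to the right of 0 and 2, Gm2a and Pla2g15, to the left.

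Of 8 membrane proteins measured, 6 were higher and none lower, with a median log2 fold change of 0.22. The number higher was 3 without vehicle well 1, and 2 without vehicle well 2, 4OHT well 1 or 4OHT well 2. Ctns encodes cystinosin, which exports cystine from the lysosome. Its log2 expression was 10.51, 10.43 and 10.60 in the vehicle wells and 11.18, 11.14 and 11.18 in the 4OHT wells, a rise of 1.57-fold (log2 fold change 0.65, SE 0.054, adjusted p = 0.00093). The groups were far apart, and the 4OHT wells lay closer together than the vehicle wells. Scarb2 encodes LIMP-2, the receptor that carries glucocerebrosidase to the lysosome. It measured 11.30, 11.21 and 11.18 in vehicle wells and 11.82, 11.87 and 11.76 in 4OHT wells, a rise of 1.5-fold (log2 fold change 0.59, SE 0.053, adjusted p = 0.0012).

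The abundant membrane glycoproteins rose less, and with little spread. Lamp1, a main component of the inner lysosomal coat, measured 13.29, 13.29 and 13.26 in vehicle wells and 13.51, 13.51 and 13.49 in 4OHT wells (1.17-fold, adjusted p = 0.015). Lamp2, which also serves chaperone-mediated autophagy, went from 12.57, 12.58 and 12.53 to 12.78, 12.80 and 12.75 (1.16-fold, adjusted p = 0.022). Cd63, a tetraspanin of late endosomes and exosomes, went from 12.70, 12.68 and 12.67 to 12.90, 12.88 and 12.89 (1.15-fold, adjusted p = 0.021). In each of these genes the gap between the groups was several times the spread within them. Cln3, the gene of juvenile Batten disease, was dimmer and more variable, at 8.32, 8.40 and 8.55 against 8.65, 8.69 and 8.76 (log2 fold change 0.28, SE 0.070, adjusted p = 0.048).

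The other membrane proteins did not pass. For Slc17a5, the sialic acid exporter, the log2 fold change was 0.15 (adjusted p = 0.075), with all 4OHT wells above all vehicle wells. Laptm4a, a small transmembrane protein of late endosomes, had -0.13 (adjusted p = 0.12), with all 4OHT wells below. The annotation names Tmem55b by its current RefSeq symbol Pip4p1, a phosphatidylinositol 4,5-bisphosphate phosphatase gene of the lysosomal surface. This probe set was not among the 44 and was added after seeing the data. It measured 11.00, 11.01 and 11.11 in vehicle wells and 11.61, 11.66 and 11.53 in 4OHT wells, a rise of 1.48-fold (adjusted p = 0.0016). The calls of Ctns and Scarb2 held without any of the 6 arrays (adjusted p up to 0.0072 and 0.0092). Those of Lamp2 and Cd63 held only without 4OHT replicate 3 and that of Cln3 only without vehicle replicate 3, while that of Lamp1 was lost without vehicle replicate 2, 4OHT replicate 1 or 4OHT replicate 2 (highest adjusted p of 0.091, 0.078, 0.139 and 0.067 in that order of genes).

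Glycan-degrading enzymes ranged from the largest rise of the set to genes whose groups overlapped. Of 17 measured, 8 were higher and none lower, with a median log2 fold change of 0.18. Gla encodes alpha-galactosidase A, which removes terminal galactose from globotriaosylceramide and is deficient in Fabry disease. It measured 10.09, 10.06 and 10.17 in vehicle wells and 10.71, 10.82 and 10.75 in 4OHT wells, a rise of 1.57-fold (log2 fold change 0.65, SE 0.052, adjusted p = 0.00082). Neu1 encodes the lysosomal sialidase, which works in a complex with cathepsin A. It went from 9.95, 10.00 and 10.02 to 10.43, 10.46 and 10.49, a rise of 1.38-fold (log2 fold change 0.47, SE 0.044, adjusted p = 0.0014). Neither gene had wells near the other group.

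Of 6 enzymes of heparan sulfate breakdown, a grouping not set in advance, 2 were higher and 4 did not pass. Over all genes 5.38% were higher and 6.62% lower. Naglu, which removes N-acetylglucosamine from the chain, measured 10.65, 10.64 and 10.59 in vehicle wells and 11.00, 11.05 and 10.98 in 4OHT wells (1.31-fold, adjusted p = 0.0029). Sgsh, the sulfamidase, measured 10.93, 10.93 and 11.02 against 11.13, 11.16 and 11.13 (1.13-fold, adjusted p = 0.047). Idua, which removes iduronate, did not pass at 0.18 on the log2 scale (95% interval 0.06 to 0.29, adjusted p = 0.059). The sulfatase Ids had -0.07 (-0.17 to 0.03), the acetyltransferase Hgsnat -0.01 (-0.12 to 0.11) and the glucuronidase Gusb -0.00096 (-0.12 to 0.11). The interval of Naglu, 0.28 to 0.49, lay above those of Ids, Hgsnat and Gusb, but the difference between these genes was not tested.

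Further glycan enzymes rose by smaller steps. Arsa, the sulfatase that acts on the myelin lipid sulfatide, went from 10.03, 10.06 and 10.07 to 10.37, 10.37 and 10.34 (1.24-fold, adjusted p = 0.0051). Gaa, the acid glucosidase that digests glycogen and fails in Pompe disease, went from 12.21, 12.27 and 12.23 to 12.49, 12.49 and 12.53 (1.2-fold, adjusted p = 0.010). Hexa, the alpha subunit of hexosaminidase A, went from 12.34, 12.30 and 12.34 to 12.52, 12.57 and 12.51 (1.15-fold, adjusted p = 0.026). In each of these 3 genes every 4OHT well lay above every vehicle well. Aga, which splits the bond between asparagine and sugar, went from 11.53, 11.49 and 11.57 to 11.72, 11.71 and 11.70 (1.13-fold, adjusted p = 0.041).

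The remaining glycan enzymes did not pass. The mannosidase genes Man2b1 and Manba had log2 fold changes of 0.17 and 0.15 (adjusted p = 0.054 and 0.092), with all 4OHT wells above all vehicle wells. Fuca1, which removes fucose, had -0.06 (95% interval -0.16 to 0.05). The sulfatases of dermatan and keratan sulfate, Arsb and Galns, had 0.05 (-0.06 to 0.15) and -0.01 (-0.11 to 0.09). The calls of Gla, Neu1, Naglu, Arsa and Gaa held without each array in turn (highest adjusted p of 0.045, for Gaa). Those of Sgsh and Aga were lost without any array (adjusted p from 0.050 to 0.155 and from 0.058 to 0.137), and that of Hexa held only without 4OHT replicate 3 (up to 0.102).

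Proteases rose in 4 of 11 genes and fell in none, with a median log2 fold change of 0.13. Ctsk encodes cathepsin K, a collagen-degrading cysteine protease. It measured 10.25, 10.22 and 10.30 in vehicle wells and 10.79, 10.83 and 10.69 in 4OHT wells, a rise of 1.43-fold (log2 fold change 0.51, SE 0.055, adjusted p = 0.0022). The lowest 4OHT well stood well above the highest vehicle well. Ctsl, the broadly acting cathepsin L gene, went from 13.29, 13.31 and 13.29 to 13.58, 13.52 and 13.56 (1.2-fold, adjusted p = 0.010). Tpp1, a tripeptidyl peptidase gene, went from 12.80, 12.84 and 12.78 to 13.05, 13.02 and 13.06 (1.18-fold, adjusted p = 0.015). Ctsa, the cathepsin A gene whose product shields the sialidase and beta-galactosidase, went from 13.07, 13.06 and 13.10 to 13.26, 13.24 and 13.25 (1.13-fold, adjusted p = 0.038). Within this complex the log2 fold change was therefore 0.47 for Neu1 and 0.17 for Ctsa, with 95% intervals of 0.36 to 0.57 and 0.08 to 0.27.

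The other 7 proteases did not pass, and in 3 of them the groups did not overlap, against 32.7% of all genes, called or not. Ctsb, Ctsd and Ctso, for cathepsins B, D and O, had log2 fold changes of 0.13 each (adjusted p = 0.089, 0.10 and 0.11), and in all of them the 4OHT wells lay above the vehicle wells. The exopeptidase gene Ctsz had -0.01 (95% interval -0.12 to 0.10), Lgmn, the asparaginyl endopeptidase that processes other cathepsins, 0.00 (-0.10 to 0.10) and Ctsf 0.05 (-0.07 to 0.17). Ctss, the cathepsin of antigen-presenting cells, was the dimmest gene of the set and the most variable. It measured 7.80, 7.79 and 7.91 in vehicle wells and 7.55, 7.92 and 7.99 in 4OHT wells, where replicate 1 was the lowest of all 6 arrays. The calls of Ctsk and Ctsl held when any array was left out (adjusted p up to 0.014 and 0.043). That of Ctsa was lost without any array (0.065 to 0.125), and that of Tpp1 without vehicle replicate 1, 4OHT replicate 1 or 4OHT replicate 2 (up to 0.058).

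Lipid enzymes went both ways, with 2 of 8 higher and 2 lower and a median log2 fold change of 0.06. Gla, Arsa and Hexa, which were higher and also act on sphingolipids, were counted with the glycan enzymes. Galc, the galactosylceramidase that is deficient in Krabbe disease, measured 8.76, 8.78 and 8.79 in vehicle wells and 9.11, 9.03 and 9.23 in 4OHT wells, a rise of 1.27-fold (log2 fold change 0.35, SE 0.059, adjusted p = 0.013). Lipa, the acid lipase that hydrolyses cholesteryl esters and triglycerides, went from 11.90, 11.89 and 11.88 to 12.05, 12.11 and 12.10 (1.15-fold, adjusted p = 0.027). The groups did not overlap in either gene, and the 4OHT wells of Galc spread more than its vehicle wells.

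The genes that fell were both lipid genes. Gm2a, the activator that lifts GM2 ganglioside out of the membrane for hexosaminidase A, measured 12.68, 12.68 and 12.65 in vehicle wells and 12.45, 12.46 and 12.44 in 4OHT wells, 1.17-fold lower (log2 difference -0.22, SE 0.039, adjusted p = 0.015). Hexa, for the enzyme it serves, went the other way by 0.21. Pla2g15, a lysosomal phospholipase A2 that cationic amphiphilic drugs inhibit, measured 10.80, 10.83 and 10.82 against 10.56, 10.54 and 10.61, 1.18-fold lower (log2 difference -0.24, SE 0.042, adjusted p = 0.014). A second, dimmer probe set of Pla2g15 had a log2 fold change of -0.02, and with both averaged the call was lost (-0.13, adjusted p = 0.22). Of the 3 genes with more than 1 probe set, the others, Smpd1 and Arsb, gave like values from both.

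Among lipid genes, the remaining 4 did not pass. Psap, the precursor of the saposins, measured 0.06 higher on the log2 scale (95% interval -0.06 to 0.17) and Ppt1, which removes palmitate from proteins, 0.06 (-0.06 to 0.18). Smpd1, the acid sphingomyelinase gene, had -0.08 (-0.18 to 0.02). Asah1, the acid ceramidase gene, measured 12.32, 12.32 and 12.05 in vehicle wells and 12.56, 12.52 and 12.49 in 4OHT wells. Vehicle replicate 3 stood apart and widened the spread, and the log2 fold change of 0.30 did not pass (SE 0.080, adjusted p = 0.060). The call of Galc was lost without vehicle replicate 2 (adjusted p = 0.052), that of Lipa without any array (0.057 to 0.107), that of Gm2a without well 1 or 2 of either group (up to 0.066) and that of Pla2g15 without vehicle well 2 or 4OHT well 1 or 2 (up to 0.065).

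**Figure D2:**
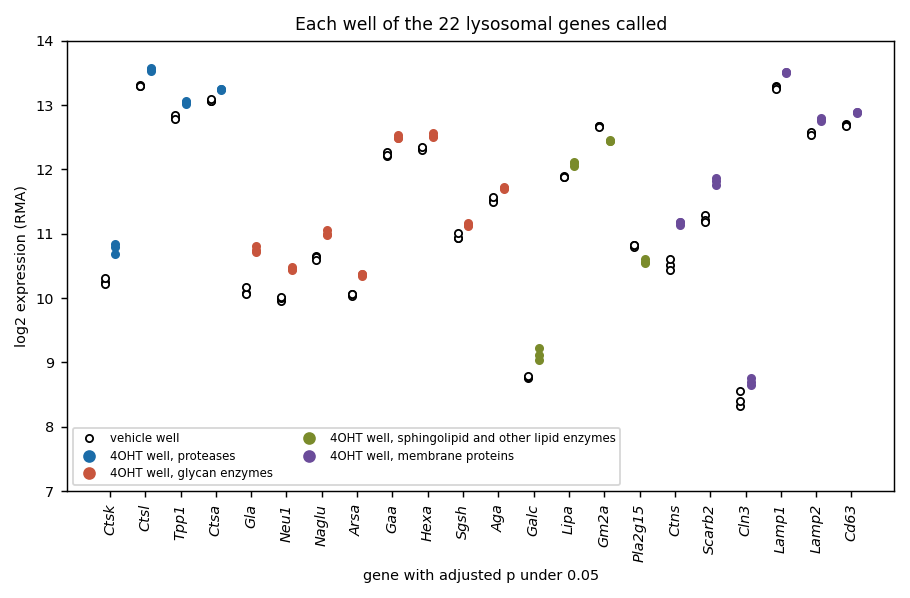
Log2 expression of the 22 lysosomal genes called, with each vehicle well as an open circle and each 4OHT well as a filled circle coloured by role. The groups do not overlap in any gene shown, and only Gm2a and Pla2g15 have the filled circles below.

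Set against each other, the classes had median log2 fold changes of 0.13 for proteases, 0.18 for glycan enzymes, 0.06 for lipid enzymes and 0.22 for membrane proteins. Their spread within a class was wider than this, from -0.01 to 0.51 in proteases, -0.07 to 0.65 in glycan enzymes, -0.24 to 0.35 in lipid enzymes and -0.13 to 0.65 in membrane proteins. The difference between classes was not tested. The classes overlap, as Gla, Arsa and Hexa, counted as glycan enzymes, also act on sphingolipids. The numbers higher, with any array left out, lay between 2 and 3 for proteases, 5 and 6 for glycan enzymes, 0 and 1 for lipid enzymes and 2 and 5 for membrane proteins. The lowest of these were reached without vehicle well 1 or 4OHT well 1 or 2 for proteases, without vehicle well 2 for lipid enzymes, without vehicle well 2 or 4OHT well 1 or 2 for membrane proteins, and in all cases but that of 4OHT well 3 for glycan enzymes.

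**Figure D3:**
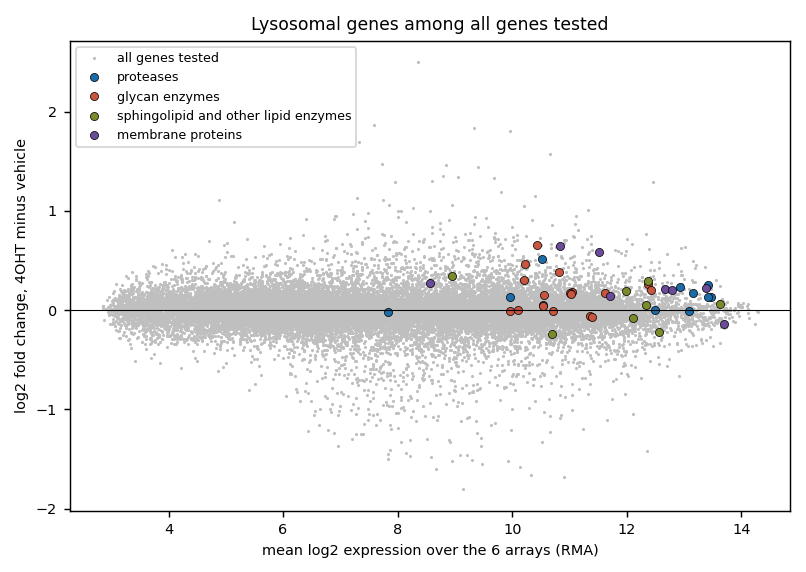
Log2 fold change (4OHT minus vehicle) against mean log2 expression over the 6 arrays, with all 22180 genes in grey and the lysosomal genes coloured by role. The lysosomal genes sit in the right part of the plot, at levels from 7.83 to 13.7, with 33 of 44 above the zero line, inside the range of the other genes.

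Promoter sequence was not itself used to choose the genes. As many lysosomal genes are known for the CLEAR element, its share among them is not independent of that choice. RefSeq windows of 300 bases on GRCm38.p6, from 250 before the start of transcription to 50 after it, were at hand for 39 of the 44 genes, and 5 of these had more than 1 start. They were searched on both strands for the core TCACGTG, for the longer TCACGTGA, which contains it, and for CACGTG, which both contain. TCACGTG stood in a window of 8 of 19 genes that were higher (42.1%), in none of the 2 that were lower and in 2 of 18 that did not pass (11.1%). It stood in a window of 5.13% of all measured genes with one, 7.19% of those above the median level and 3.77% of all 32851 windows. Over all measured genes it stood in 13% of those higher, 4.25% of those lower and 4.72% of those not called. The longer TCACGTGA stood in 3 of 19 lysosomal genes higher (15.8%), 1 of 18 not called (5.56%) and 1.44% of measured genes with a window. The shorter CACGTG stood in 9 of 19 (47.4%), 3 of 18 (16.7%) and 9.19%. Neither stood in the 2 that were lower. A match describes the letters in a window and shows no binding.

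The 6 stretches below show the promoter letters of the called genes of smallest p with a match, cut before the start of transcription, 5′ to 3′ on the strand of the gene. Capitals mark TCACGTG, its reverse complement CACGTGA or, in Ctsl, which has only the shorter form, CACGTG. They lie at chrX:134601153-134601255 (Gla, minus strand), chr11:101069980-101070066 (Naglu, plus), chr15:89477425-89477481 (Arsa, minus), chr13:64370711-64370770 (Ctsl, minus), chr11:119267782-119267868 (Gaa, plus) and chr8:13159059-13159160 (Lamp1, plus), all on GRCm38.p6.
Gla: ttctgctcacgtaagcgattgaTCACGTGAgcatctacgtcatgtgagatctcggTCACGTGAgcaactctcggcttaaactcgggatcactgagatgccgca
Naglu: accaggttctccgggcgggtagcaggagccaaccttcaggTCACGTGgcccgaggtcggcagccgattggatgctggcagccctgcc
Arsa: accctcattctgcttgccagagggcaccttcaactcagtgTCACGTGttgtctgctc
Ctsl: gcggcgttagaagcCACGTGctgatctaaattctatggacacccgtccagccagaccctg
Gaa: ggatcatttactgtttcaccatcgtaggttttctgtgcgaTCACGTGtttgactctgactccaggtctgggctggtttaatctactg
Lamp1: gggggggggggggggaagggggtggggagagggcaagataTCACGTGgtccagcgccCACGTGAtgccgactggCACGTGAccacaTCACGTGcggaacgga

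The matches differed in number and place. Gla, with the largest rise, held the longer TCACGTGA at 228 and again at 195 bases before the start. Lamp1 held 4 matches in a row, the first at 62 and the last at 16 bases before the start, and rose by 0.22 on the log2 scale. Naglu, Arsa and Gaa held 1 match each, at 74, 17 and 141 bases before the start. Sgsh, Cln3 and Ctsa, which were also higher, held 1, 2 and 2. Of the genes that did not pass, Ctsd held 2 and Lgmn 1. For Ctns, Scarb2, Neu1 and Ctsk, which stood with Gla as the genes with the largest rises, no match was found. Only 19 of the 20 genes higher had a window to search.

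**Figure D4:**
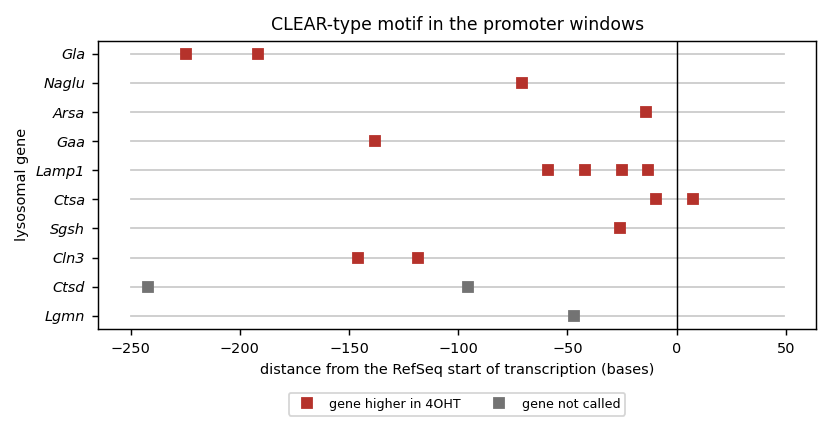
Position of each match to the CLEAR-type core in the promoter windows of the 10 lysosomal genes that hold it, in bases from the RefSeq start of transcription, with genes higher after 4OHT in red and genes not called in grey. The matches lie between 245 bases before the start (Ctsd) and just past it (Ctsa).

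Lysosomal genes outside the set, in lists also chosen with earlier results of these data known, were called higher more often than lower. Of 100 genes in 5 further lists, 91 were measured, 29 were higher, 2 were lower and 60 did not pass. These counts and those of the single lists that follow stand beside 5.38% of all genes higher and 6.62% lower. Of the 91 genes, 17 were higher without vehicle replicate 2 and 14 without 4OHT replicate 2. Of 30 genes listed as further membrane proteins, not all of them membrane-bound, 16 were higher and none lower, with a median log2 fold change of 0.20. Gpnmb, a glycoprotein of lysosomes and melanosomes, rose by 1.81 on the log2 scale, Cd68, a heavily glycosylated membrane protein best known from macrophages, by 0.48, Mfsd1, a lysosomal transporter, by 0.47 and the amino acid transporter gene Slc36a1 by 0.44. Of 24 genes listed as further enzymes, not all of them confined to lysosomes, 4 were higher and none lower, with a median of -0.02. These were the peptidase genes Dpp7 and Scpep1, which rose by 0.76 and 0.40, the thiol reductase gene Ifi30 by 0.24 and the acid phosphatase gene Acp5 by 0.16.

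Genes that deliver lysosomal enzymes went both ways. Of 21 genes of sorting and maturation, 6 were higher and 1 was lower. Gnptg, a subunit of the enzyme that makes the mannose 6-phosphate tag, rose by 0.42 on the log2 scale, and the retromer genes Vps26a and Vps35 by 0.25 and 0.32. Grn, the progranulin gene, rose by 0.21. The gene that fell was M6pr, the cation-dependent mannose 6-phosphate receptor, by 0.33 (adjusted p = 0.029). It lies outside the naming rule and was picked after its value was seen.

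Of 11 genes listed as inhibitors of lysosomal proteases, 3 were higher and 1 lower. Cstb, which encodes the cathepsin inhibitor cystatin B, rose by 0.31 and Ctla2a, a cathepsin propeptide-like inhibitor, by 0.47. The serpin gene Serpinb9, whose product is known as an inhibitor of granzyme B rather than of cathepsins, fell by 0.43. The other gene called higher, the stefin gene Stfa3, had a log2 level of only 3.73 in vehicle wells, and whether its probe set lay above background was not tested. None of 5 transcription factor genes passed, and 2 had an unadjusted p under 0.05. Their log2 differences were 0.36 for Mitf (adjusted p = 0.051), 0.34 for Tfec (adjusted p = 0.081), 0.09 for Tfe3, -0.13 for Tfeb and -0.03 for the repressor gene Zkscan3. These 5 also lie outside the naming rule and are given because their list is short.

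**Figure D5:**
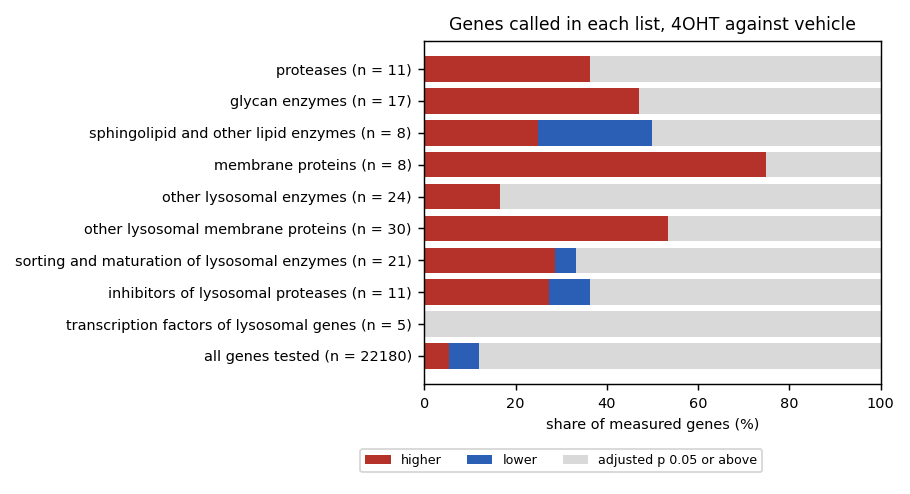
Share of measured genes called higher, called lower or not called in each of the 4 classes of the set, the 5 further lists and all genes tested, with the number of genes in parentheses. The lists named for membrane proteins have the longest red bars, at 75% and 53.3%, against 5.38% over all genes.

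The arrays were alike, with Pearson's r over genes of 0.997 to 0.998 within groups and 0.995 to 0.996 between them. Fibroblast markers were bright, and of 11 measured 1, Col3a1, fell and none rose. This count and those of the marker lists that follow stand beside 6.62% of all genes lower and 5.38% higher. Macrophages are rich in lysosomal enzymes, and of 22 macrophage and monocyte markers 3 fell (C1qb, Ms4a7 and Lyz2, by 0.72, 0.65 and 0.24) and none rose. The other C1q chain genes, C1qa and C1qc, measured 0.01 and 0.03 higher, and 9 of the 22 had a positive log2 fold change. Cd68, which rose by 0.48, was counted with the further lysosomal genes. The summed level of the 22 markers, on the log2 scale, was 11.84 to 11.91 in vehicle wells and 11.68 to 11.78 in 4OHT wells. Of the 22, 6 lay above the median level of all genes, and their vehicle means ran from 5.27 for Ptprc to 10.27 for Lyz2. Arrays give no zero, so these levels do not show whether macrophages were present. Smooth muscle and pericyte markers were lower in 6 of 8 and higher in none, with a summed level of 15.82 to 15.84 against 15.50 to 15.57. Of 8 endothelial markers 2 rose and 3 fell, of 5 mesothelial markers 1 rose and 2 fell, and of 12 epithelial markers 1 fell. In such bulk wells fewer cells of a type and less RNA per cell cannot be told apart, and the part of these shifts in the lysosomal values was not tested.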

How the data were processed

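Per the labels' protocols, 100 ng of total RNA per well was amplified from an oligo(T) primer, labelled with biotin and read on single-colour Affymetrix arrays. The deposited table holds log2 expression per probe set. Per the submitters' processing notes the tools were oligo, RMA and limma, with no version, and for the array's genome build the sources used here give nothing. RMA equalizes the distributions of the arrays, so a shift of all genes would be removed, and it compresses changes of dim genes. Of 41345 probe sets, 23521 had 1 symbol and were used, 1814 had several and 16010 none, which left 22180 genes. Both groups entered a single fit in limma 3.58.1 under R 4.3.3 (lmFit and eBayes, no trend, not robust, 6.70 degrees of freedom, two-sided), with Benjamini-Hochberg adjustment over all genes and no filter. The code was tested on simulated data. Alternatives were each array left out, a replicate block, other scalings, probe set rules, a level filter, array weights, a trended and robust estimate and a stricter threshold. Promoter windows are RefSeq's. All 46 genes could be named, with up to 4 called genes of smallest p from each further list and called or defining cell markers. Motif matches were printed for called genes. The members and lists were chosen with earlier results of these data known. The number of arrays limits the precision. The promoter of the Cre transgene is not reported here.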

Additional observations from a re-analysis of the deposited data

How the results depend on the processing

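The labels do not say whether the replicate numbers pair the wells, and the main fit treats them as unpaired. Deviations of same-numbered vehicle and 4OHT wells correlated at 0.062, -0.024 and 0.043, which cannot settle this. With the replicate number as a block, 11 lysosomal genes were higher and 0 lower (20 and 2 without the block), with 2 proteases, 5 glycan enzymes, 1 lipid enzyme and 3 membrane proteins higher, 16 further lysosomal genes higher and 1 lower, and 648 genes higher and 920 lower over all. At an adjusted p under 0.01 these counts were 7, 0, 1, 4, 0, 2, 13, 1, 395 and 615 in the same order. With a trended and robust estimate 28 lysosomal genes were higher, 7 of them proteases, and 3 lower. Further lysosomal genes lower were then 7, and over all genes 1828 were higher and 2295 lower. Among genes above the median level alone, 28 lysosomal genes were higher, 7 of them proteases, and 3 lower, with 4 further genes lower. Lysosomal genes higher numbered 23 with arrays centred on their medians, 25 with a second quantile normalization and 22 with array weights. Man2b1 and Idua were called in each of these 5 settings. With probe sets of a gene averaged, 1 lysosomal gene was lower, as the call of Pla2g15 was lost. The median of the lysosomal genes was 0.190 with the arrays centred on their medians and 0.184 with a second quantile normalization. With any array left out, lysosomal genes higher ranged from 10 to 15 and lower from 0 to 2, proteases from 2 to 3, glycan enzymes from 5 to 6, lipid enzymes from 0 to 1, membrane proteins from 2 to 5, further genes from 14 to 24 higher and from 1 to 2 lower, all genes from 486 to 986 higher and from 734 to 1340 lower, and the median from 0.163 to 0.178.

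No called lysosomal gene changed sign in any alternative. Of the uncalled, 6 did so, and their log2 fold changes in the main fit lay near 0, from -0.014 (Ctss) to 0.0012 (Lgmn). Ctss, Ctsz, Gusb, Galns and Hgsnat had log2 fold changes of 0.0072, 0.011, 0.020, 0.0094 and 0.016 with centred arrays. Ctss, Ctsz and Gusb had 0.011, 0.014 and 0.00645 with the second normalization, and Ctss and Ctsz 0.0027 and 0.0017 with array weights. With any array left out, the range was -0.098 to 0.12 for Ctss, -0.025 to 0.012 for Ctsz, -0.016 to 0.012 for Lgmn, -0.033 to 0.022 for Gusb, -0.030 to 0.0052 for Galns and -0.024 to 0.026 for Hgsnat. The cause was not tested.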
